A study of Mus musculus with 9 samples.

Results

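NRF2, the transcription factor encoded by Nfe2l2, switches on genes that protect cells from oxidants and reactive chemicals. In unstressed cells KEAP1 holds NRF2 in the cytoplasm and passes it to a ubiquitin ligase for degradation. Oxidants modify cysteines of KEAP1, after which NRF2 accumulates, pairs with a small MAF protein in the nucleus and binds antioxidant response elements near its target genes. These targets make and recycle glutathione, run the thioredoxin system, and break down haem. The 10 genes described here were chosen by name as this pathway's core: the regulators Nfe2l2 and Keap1, the cystine transporter gene Slc7a11, the glutathione genes Gclc, Gclm and Gsr, the thioredoxin-linked genes Txnrd1 and Srxn1, and the stress enzyme genes Hmox1 and Nqo1. Of these, 9 were among the 15228 genes of the expression table. Nqo1, which encodes a quinone reductase, has no row there and was not analysed here.

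RNA-seq was performed on retinal cells of WT C57BL/6J mice aged 6 to 8 weeks, collected by flow sorting as retinal ganglion cells (RGCs). The Ctrl group was uninjured, and the sources used here record no injection for it. The ONC group had its optic nerve crushed and received PBS in the eye, and the TPEN group had the same crush and received TPEN, a membrane-permeable zinc chelator, at 100 μM. Both injured groups were taken 3 d after the crush. In comparisons with Ctrl, the crush and the injection into the eye therefore cannot be told apart. Each group had 3 libraries of 19946993 to 23109754 reads, and the sources used here do not state whether these came from separate mice, so that p-values measure only the spread between these libraries, which may be technical. Levels are RPKM, reads scaled to exon length and library size, and can therefore be compared between genes per length.

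The label of the cells was only partly borne out by their transcripts. Rod photoreceptor markers summed to 21321 to 22228 RPKM in the Ctrl libraries, 18806 to 19055 in ONC and 20070 to 20206 in TPEN. The 12 listed RGC markers summed to 373 to 382, 397 to 420 and 311 to 325 RPKM in the same order, and of these Rbpms, Slc17a6 and Pou4f1 had a mean under 0.5 RPKM. Of 9 tested RGC markers, 4 were called higher and 1 lower in ONC/Ctrl, and 1 higher and 4 lower in TPEN/ONC. The name RGCs stands below for cells sorted as RGCs. In bulk RNA, fewer cells of a type and less RNA per cell cannot be told apart. Of 12 tested markers of microglia and macrophages, 12 were higher in ONC/Ctrl, 7 were lower in TPEN/ONC and 12 were higher in TPEN/Ctrl. All 14 listed markers of that type had reads in every group, and they summed to 9.89 to 10.4 RPKM in Ctrl, 75.4 to 79.1 RPKM in ONC and 37.8 to 40.7 RPKM in TPEN. For Hmox1 these markers are set beside its level near the end of the results, but their part in the changes was not tested for any gene.

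Differences were tested with limma on log2(RPKM + 0.1) over the 13566 genes that averaged 0.5 RPKM or more, with Benjamini-Hochberg adjustment across that whole set. A gene was called upregulated or downregulated at an adjusted p under 0.05. The analysis covered 8 of the 10 genes, since Slc7a11 lay under the limit on low genes and Nqo1 was not listed. In ONC/Ctrl, 4 of the 8 tested genes were upregulated (Hmox1, Srxn1, Txnrd1 and Gsr) and 0 downregulated by limma, while 11.7% of all genes tested were upregulated and 6.97% downregulated. At an unadjusted p under 0.05, 6 of the 8 were higher and 0 lower. The share over all genes at that limit was not computed, here or below, so such counts have no background. Limma-voom on the read numbers called 5 members higher and 0 lower, against 1923 and 1291 of the 13566 genes tested. The ONC libraries lay above all Ctrl libraries for 6 of 8 members, against 20.7% of all genes. After quantile normalization, the split over all genes changed from 1590 upregulated and 946 downregulated to 1268 and 1447, whereas the number of upregulated members was again 4. The median log2 fold change of the 8 genes was 0.34, against 0.02 over all genes tested. In TPEN/ONC, Hmox1 was the 1 member downregulated and 0 were upregulated by limma, where 4.14% and 3.24% of all genes passed in those directions. At an unadjusted p under 0.05, 2 members were lower (Hmox1 and Gclc) and 0 higher. Voom called 1 member lower and 0 higher, against 948 and 740 of all genes tested. The TPEN libraries lay below all ONC libraries for 4 of 8 members, against 15.6% of all genes. In TPEN/Ctrl, 4 of 8 genes were upregulated, against 8.36% of all genes, and 0 were downregulated by limma, against 5.01%. The member numbers were the same at an unadjusted p under 0.05 and by voom. Over all genes tested, voom called 1428 higher and 947 lower there. The upregulated members were again Hmox1, Srxn1, Gsr and Txnrd1, and for these 4 the TPEN libraries lay above all Ctrl libraries, against 18.1% of all genes. The comparisons share libraries, so their counts are not independent of each other.

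**Figure D1:**
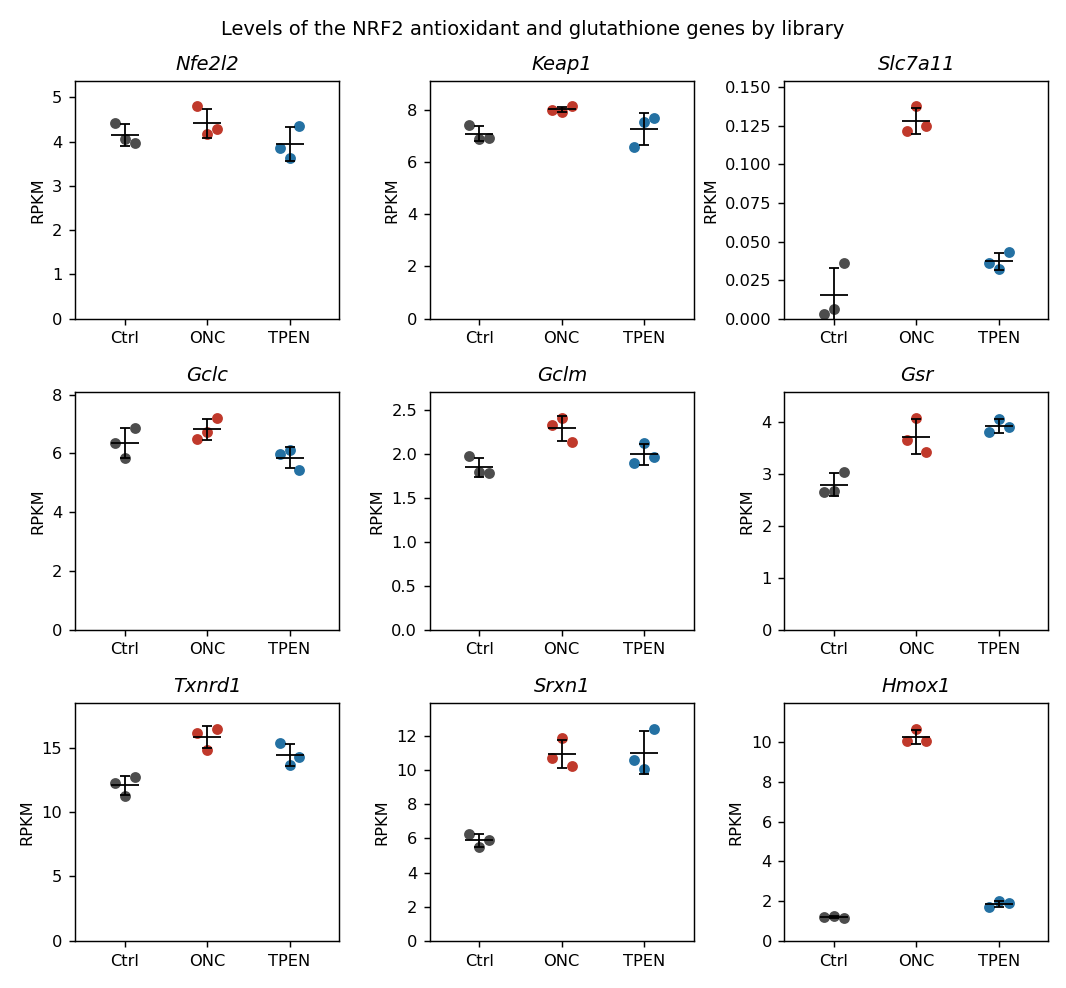
RPKM (y axis) of the 9 listed genes in each library of Ctrl, ONC and TPEN (x axis), with 1 point per library and the mean with its SD over 3 libraries as a bar. The ONC libraries of Hmox1 lie near 10 RPKM and its other libraries near 1 to 2 RPKM, while the ONC and TPEN libraries of Srxn1 overlap above those of Ctrl.

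Hmox1 changed most among the 8 tested genes. It encodes haem oxygenase 1, which opens the haem ring and releases iron, carbon monoxide and biliverdin, and it lies on chromosome 8 (75093621 to 75100589, plus strand, GRCm38). Its level was 1.22, 1.26 and 1.14 RPKM in the Ctrl libraries, 10.04, 10.7 and 10.05 RPKM in ONC, and 1.69, 2.01 and 1.89 RPKM in TPEN. Every ONC library was above every other library, and the TPEN libraries lay just above Ctrl without overlap. The Ctrl, ONC and TPEN means were 1.21 ± 0.0628, 10.3 ± 0.361 and 1.86 ± 0.162 RPKM (SD, n = 3 libraries). The log2 fold change was 2.99 in ONC/Ctrl (standard error, SE, 0.09, limma adjusted p = 1.5e-08), which is 7.92-fold on this scale. In TPEN/ONC it was -2.40 (SE 0.09, limma adjusted p = 3.6e-07), or 5.29-fold lower, and 1.21% of all genes were downregulated there by at least 1.5-fold. Hmox1 remained higher in TPEN than in Ctrl by 0.58 on the log2 scale, 1.4975-fold (limma adjusted p = 0.00165).

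Srxn1 had the next largest increase in ONC/Ctrl among the 8 tested genes, and it was not called in TPEN/ONC. It encodes sulfiredoxin, which repairs overoxidized peroxiredoxins, and lies on chromosome 2 (152105516 to 152111376, plus strand). Its level was 6.28, 5.49 and 5.88 RPKM in Ctrl, 10.7, 11.9 and 10.2 RPKM in ONC, and 10.6, 10.1 and 12.4 RPKM in TPEN. The libraries of both injured groups overlapped and all lay above Ctrl. The log2 fold change was 0.88 in ONC/Ctrl (SE 0.09, limma adjusted p = 1.0e-04), or 1.84-fold, and 0.89 in TPEN/Ctrl (limma adjusted p = 1.5e-04). In TPEN/ONC it was 0.01, with a 95% interval of -0.19 to 0.21 (limma adjusted p = 0.974).

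The difference between Hmox1 and Srxn1 was then taken within each library, a comparison chosen after their values were seen. The log2 ratio of the Hmox1 level to the Srxn1 level was -2.28 ± 0.139 in Ctrl, -0.0923 ± 0.0629 in ONC and -2.57 ± 0.21 in TPEN (SD, n = 3 libraries). Hmox1 thus approached the level of Srxn1 in ONC and was well below it in the other groups. The ratio was lower in TPEN than in ONC by a log2 difference of -2.47, without overlap (two-sided exact permutation p = 0.1, the smallest that 3 against 3 libraries can give). Between TPEN and Ctrl the difference was -0.281 and the libraries overlapped (two-sided exact permutation p = 0.3).

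**Figure D2:**
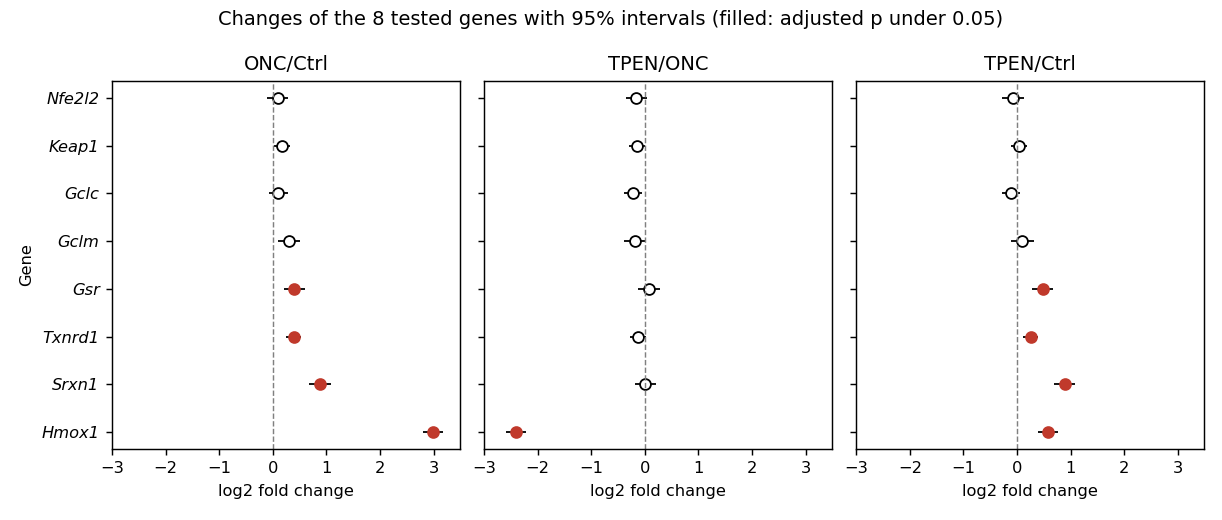
Log2 fold change (x axis) of each of the 8 tested genes (y axis) in ONC/Ctrl, TPEN/ONC and TPEN/Ctrl, with lines for 95% intervals from limma and filled points for an adjusted p under 0.05. Hmox1 moves by 2.99 and -2.40 in the first and second panels, and in TPEN/ONC the other 7 genes lie within 0.22 of 0.

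Txnrd1 encodes the cytosolic thioredoxin reductase, which returns oxidized thioredoxin to its reduced form with electrons from NADPH. It lies on chromosome 10 (82859206 to 82897724, plus strand) and had the highest mean level of the listed genes, rank 3233 of 15228. Its level was 12.2, 11.2 and 12.7 RPKM in Ctrl, 16.1, 14.8 and 16.5 RPKM in ONC, and 15.3, 13.7 and 14.3 RPKM in TPEN. Both injured groups lay above Ctrl, and they overlapped each other. Txnrd1 was upregulated by 0.39 on the log2 scale in ONC/Ctrl (SE 0.06, limma adjusted p = 0.00242), or 1.31-fold. In TPEN/ONC its log2 fold change was -0.13, with a 95% interval of -0.27 to 0.01 (limma adjusted p = 0.279). Its increase in TPEN/Ctrl, 0.26 on the log2 scale (limma adjusted p = 0.0279), had adjusted p-values of 0.0633 and 0.088 without Ctrl replicates 1 and 2, and of 0.0924 and 0.0683 without TPEN replicates 1 and 3.

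Gsr encodes glutathione reductase, which regenerates reduced glutathione from its oxidized dimer. The gene lies on chromosome 8 (33652523 to 33698163, plus strand). Its level was 2.66, 2.67 and 3.04 RPKM in Ctrl, 3.65, 4.08 and 3.41 RPKM in ONC, and 3.80, 4.05 and 3.90 RPKM in TPEN. As for Srxn1, both injured groups overlapped and lay above Ctrl. Gsr was upregulated by 0.40 on the log2 scale in ONC/Ctrl (SE 0.09, limma adjusted p = 0.0109) and by 0.48 in TPEN/Ctrl (limma adjusted p = 0.00609). Its log2 fold change in TPEN/ONC was 0.08, with a 95% interval of -0.12 to 0.27 (limma adjusted p = 0.668). The increases of Gsr and Txnrd1 were below 1.5-fold, so that with this further limit Hmox1 and Srxn1 alone were upregulated among the members in ONC/Ctrl, where 4.58% of all genes passed both limits. In TPEN/Ctrl, Srxn1 alone passed both, against 3.45% of all genes, and Hmox1 fell just short at 1.4975-fold.

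The subunits of glutamate-cysteine ligase, which carries out the rate-limiting step of glutathione synthesis, did not pass the test. Gclc, the catalytic subunit gene on chromosome 9 (77754535 to 77794485, plus strand), had 6.35, 5.84 and 6.85 RPKM in Ctrl, 6.49, 6.73 and 7.21 RPKM in ONC, and 5.99, 6.11 and 5.44 RPKM in TPEN. Its Ctrl libraries overlapped both other groups, and its TPEN libraries all lay below those of ONC. The log2 fold change of Gclc was 0.10 in ONC/Ctrl (95% interval -0.07 to 0.27, limma adjusted p = 0.404) and -0.22 in TPEN/ONC (95% interval -0.39 to -0.05, limma adjusted p = 0.129). Gclm, the modifier subunit gene on chromosome 3 (122245557 to 122270732, plus strand), had 1.97, 1.79 and 1.78 RPKM in Ctrl, 2.32, 2.41 and 2.13 RPKM in ONC, and 1.89, 2.12 and 1.96 RPKM in TPEN. Its ONC libraries lay above all others. The log2 fold change of Gclm was 0.29 in ONC/Ctrl (SE 0.09, limma adjusted p = 0.0542) and -0.19 in TPEN/ONC (limma adjusted p = 0.265). With limma-voom on the read numbers, the adjusted p of Gclm in ONC/Ctrl was 0.0275. Gclm overlaps the listed genes Gm17494 and Gm6061, and its reads are uncertain to that extent.

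Slc7a11 encodes the transport subunit of the cystine-glutamate exchanger, which supplies cysteine for glutathione. It lies on chromosome 3 (49892526 to 50443614, minus strand) and was near the bottom of the table, rank 15214 of 15228 by mean level. It had 1, 2 and 10 reads in the Ctrl libraries, 39, 44 and 40 reads in ONC, and 10, 10 and 12 reads in TPEN. The ONC libraries were above all others, and the TPEN and Ctrl libraries overlapped, with Ctrl replicate 3 apart from the rest of its group. The Ctrl, ONC and TPEN means were 0.0151 ± 0.018, 0.128 ± 0.00831 and 0.0372 ± 0.00554 RPKM (SD, n = 3 libraries). Scaled to library totals, the summed reads of ONC were 9.01 times those of Ctrl (exact 95% interval 5.08 to 17.4), and those of TPEN were 0.289 times those of ONC (0.189 to 0.429). These intervals cover counting error only. A check added after the values were seen left out single libraries. Without Ctrl replicate 3, which held 10 of the 13 Ctrl reads, the ONC/Ctrl ratio was 27.1 (9.05 to 133). That ratio rests on Ctrl replicates 1 and 2, whose 1 and 2 reads leave the gene undetermined there. Without any other single library the ONC/Ctrl ratio was 6.42 to 9.23. An exact permutation test over the 3 groups gave p = 0.00714 (smallest possible 0.00357). It cannot show a difference if the gene was listed through its ONC reads, since a high ONC level was then favoured in advance. Among all listed genes, 51, 44 and 58 had no read in the Ctrl libraries, against 0, 0 and 1 in ONC. How genes were chosen for listing is not given, and a filter passed through ONC alone would favour such a difference. This limit holds for the read ratios, the permutation test and the fit that follows. In a limma fit without the limit on low genes, the log2 fold change was 0.998 in ONC/Ctrl (SE 0.17, limma adjusted p = 0.0021) and -0.73 in TPEN/ONC (limma adjusted p = 0.0262), values held small by the added 0.1 RPKM. After quantile normalization the ONC/Ctrl value was 0.39 and no longer called (limma adjusted p = 0.132), and the TPEN/ONC value was -0.62 (limma adjusted p = 0.0518). The TPEN/ONC value lost its call without any single ONC or TPEN library, with a highest limma adjusted p of 0.087 (without ONC replicate 2).

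Neither Nfe2l2 nor Keap1 passed the test at the RNA level. Nfe2l2, on chromosome 2 (75675513 to 75704641, minus strand), had 4.42, 4.05 and 3.96 RPKM in Ctrl, 4.79, 4.16 and 4.28 RPKM in ONC, and 3.85, 3.63 and 4.36 RPKM in TPEN. All 3 groups overlapped. Its log2 fold change was 0.09 in ONC/Ctrl (95% interval -0.11 to 0.29, limma adjusted p = 0.56) and -0.16 in TPEN/ONC (95% interval -0.36 to 0.04, limma adjusted p = 0.343). RNA levels do not report on the NRF2 protein, whose amount is set largely by degradation.

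Keap1, on chromosome 9 (21229730 to 21239361, minus strand), had 7.40, 6.89 and 6.93 RPKM in Ctrl, 7.98, 7.91 and 8.12 RPKM in ONC, and 6.56, 7.54 and 7.66 RPKM in TPEN. Its ONC libraries lay above all others by a small margin. The log2 fold change of Keap1 was 0.18 in ONC/Ctrl (SE 0.07, limma adjusted p = 0.0976) and -0.14 in TPEN/ONC (limma adjusted p = 0.242). Its ONC/Ctrl value reached a limma adjusted p of 0.0434 without TPEN replicate 1. Keap1 overlaps the listed gene Gm16754 on the opposite strand, and its reads are uncertain to that extent.

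By mean level over the 9 libraries, the order of the listed genes was Txnrd1, Srxn1, Keap1, Gclc, Hmox1, Nfe2l2, Gsr, Gclm and Slc7a11. This order differed between the groups. In Ctrl, Hmox1 was at 1.21 ± 0.0628 RPKM, below Gclm at 1.85 ± 0.108 RPKM and above Slc7a11 alone (SD, n = 3 libraries). In ONC, Hmox1 was at 10.3 ± 0.361 RPKM, close to Srxn1 at 10.9 ± 0.83 RPKM, and lay below Srxn1 in each ONC library. In TPEN, Hmox1 at 1.86 ± 0.162 RPKM was close to Gclm at 1.99 ± 0.115 RPKM, and lay below Gclm in each TPEN library. In Ctrl, the neighbours Keap1 at 7.07 ± 0.282 RPKM, Gclc at 6.35 ± 0.507 RPKM and Srxn1 at 5.89 ± 0.394 RPKM each differed from the next by less than the sum of their SDs. They kept this order in each Ctrl library.

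Promoter sequence was searched for the core of the antioxidant response element, written TGACNNNGC, and its variant TGAGNNNGC, on both strands of the 250 bases before each RefSeq transcript start (GRCm38.p6). The table held such windows for 7 of the 10 genes, and none for Hmox1, Gclc and Gsr. These genes had 9 windows, of which 5, from 5 different genes, held a core (55.6%), and either core was found in 23% of all 32851 windows and in 25.9% of the 11719 windows of genes tested here. The windows of Keap1 and Nqo1 held none. Matches are shown because their genes ranged from clear increases in ONC (Srxn1, Txnrd1) to no call (Gclm, Nfe2l2). Each is given 5′ to 3′ on the strand of its gene, with the core in capitals. A core on the opposite strand appears as its reverse complement, starting with GC.
Srxn1, chr2:152105459-152105507: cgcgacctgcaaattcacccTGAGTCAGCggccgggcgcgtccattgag
Srxn1, chr2:152105346-152105394: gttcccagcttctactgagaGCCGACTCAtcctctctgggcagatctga
Txnrd1, chr10:82859094-82859142: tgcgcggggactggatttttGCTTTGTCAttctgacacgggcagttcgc
Gclm, chr3:122245403-122245451: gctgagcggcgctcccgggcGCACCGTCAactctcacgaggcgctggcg
Slc7a11, chr3:50443682-50443730: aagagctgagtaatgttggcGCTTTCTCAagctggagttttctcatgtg
Nfe2l2, chr2:75704875-75704913: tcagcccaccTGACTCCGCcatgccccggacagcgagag
The Srxn1 window was the only member window with 2 cores. Its core nearest the start, 45 to 37 bases before it, overlaps a TGAGTCA, the site of AP-1 factors, which 4.46% of all windows hold. Members with a core thus included genes that passed the test in ONC/Ctrl and genes that did not, and a match of letters does not show binding.

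Other genes of antioxidant defence were described from 9 lists of 117 genes, of which 89 were listed and 79 tested. In ONC/Ctrl, 16 of 79 passed the test as higher and 4 as lower, where 11.7% and 6.97% of all genes did so, with a median log2 fold change of 0.13. In TPEN/ONC, 3 were upregulated and 6 downregulated, where 3.24% and 4.14% of all genes were, with a median of -0.06. The TPEN/Ctrl comparison gave 9 higher and 4 lower calls, where 8.36% and 5.01% of all genes were called, with a median of 0.03. Thus 59 of the 79 genes did not pass in ONC/Ctrl, and 70 did not pass in TPEN/ONC. The median log2 fold changes over all genes tested were 0.02, -0.01 and 0.01 in the 3 comparisons.

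Among 14 tested regulators around NRF2, 5 were upregulated and 1 downregulated in ONC/Ctrl. Maff, one of the small MAF partners, had 0.863, 0.653 and 1.18 RPKM in Ctrl, 2.42, 2.45 and 2.28 RPKM in ONC, and 2.08, 1.93 and 2.39 RPKM in TPEN. Both injured groups lay above Ctrl and overlapped each other. Its log2 fold change was 1.35 in ONC/Ctrl (SE 0.17, limma adjusted p = 5.0e-04) and -0.16 in TPEN/ONC (limma adjusted p = 0.66). Mafk, another small MAF gene, was upregulated in ONC/Ctrl by 0.61 on the log2 scale (limma adjusted p = 0.00595). Sqstm1, whose protein p62 sequesters KEAP1, was upregulated by 0.32 (limma adjusted p = 5.0e-04) and overlaps 3010026O09Rik. The 1 gene of this list called in TPEN/ONC was Btrc, a subunit of a ubiquitin ligase that also acts on NRF2, at 0.19 (limma adjusted p = 0.0204). This call was lost without ONC replicate 1, ONC replicate 2 or TPEN replicate 1, with a highest adjusted p of 0.0771.

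The ferritin genes, which store iron, were called in both comparisons in the same directions as Hmox1. Of 4 tested genes of haem breakdown and ferritin, 2 were upregulated in ONC/Ctrl and the same 2, Ftl1 and Fth1, were downregulated in TPEN/ONC. Ftl1, the ferritin light chain gene, had 8.09, 7.33 and 6.95 RPKM in Ctrl, 14.03, 15.3 and 15.8 RPKM in ONC, and 8.96, 10.04 and 10.3 RPKM in TPEN. Ftl1 rose by 1.004 on the log2 scale in ONC/Ctrl (SE 0.08, limma adjusted p = 1.4e-05) and changed by -0.62 in TPEN/ONC (SE 0.08, limma adjusted p = 0.00149). Ftl1 overlaps Gm10252 and Gm22133, and its reads are uncertain to that extent. Fth1, the ferritin heavy chain gene, had 169, 166 and 175 RPKM in Ctrl, 215, 210.1 and 221 RPKM in ONC, and 159, 167 and 167 RPKM in TPEN. The ONC libraries of both genes lay above all others. The log2 fold change of Fth1 was 0.34 in ONC/Ctrl (limma adjusted p = 6.8e-05) and -0.39 in TPEN/ONC (limma adjusted p = 1.2e-04).

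Of 14 tested thioredoxin and peroxiredoxin genes, 3 were upregulated in ONC/Ctrl and 0 downregulated by limma. At an unadjusted p under 0.05, 4 were higher and 0 lower, and voom called 4 and 0. Txn1, the thioredoxin that Txnrd1 serves, had a log2 fold change of 0.68 (limma adjusted p = 0.00457). Prdx1 and Prdx6, which reduce peroxides, had log2 fold changes of 0.42 (limma adjusted p = 0.00122) and 0.39 (limma adjusted p = 0.0018). In TPEN/ONC the 1 call of this list was Prdx6 at -0.25 (limma adjusted p = 0.0439), which was lost in 8 of 9 fits that left out a library, with a highest adjusted p of 0.141.

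In glutathione metabolism, ONC/Ctrl gave 2 higher and 2 lower calls among 13 tested genes, and 0 were called in TPEN/ONC by limma, where 1 was higher and 3 lower at an unadjusted p under 0.05 and voom called 0 and 2. Slc1a1, a transporter of glutamate and cysteine, had 0.824, 0.80 and 1.098 RPKM in Ctrl, 2.67, 1.91 and 2.07 RPKM in ONC, and 1.69, 1.58 and 1.80 RPKM in TPEN. The 3 groups did not overlap, with TPEN between the others. Slc1a1 overlaps 4430402I18Rik, and its reads are uncertain to that extent. Slc1a1 rose by 1.20 on the log2 scale in ONC/Ctrl (SE 0.15, limma adjusted p = 4.9e-04) and had a log2 fold change of -0.36 in TPEN/ONC (limma adjusted p = 0.212). Abcc1, an exporter of glutathione conjugates, was upregulated by 0.30 (limma adjusted p = 0.0178) and lost its call without Ctrl replicates 1 or 2 or ONC replicate 2. Ggt7 had a log2 fold change of -0.24 (limma adjusted p = 0.038) and lost its call in 6 of 9 fits that left out a library. It overlaps Acss2.

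The glutathione peroxidases gave 1 call in ONC/Ctrl, and the transferases gave calls in both ONC/Ctrl and TPEN/ONC. Gpx1 was the 1 of 4 tested peroxidases upregulated in ONC/Ctrl, at 0.55 on the log2 scale (limma adjusted p = 0.00612). Of 11 tested transferases, 1 was upregulated in ONC/Ctrl, where 11.7% of all genes were. In TPEN/ONC 3 of them were downregulated, where 4.14% of all genes were, and voom called 2 lower. Gstm1 had 15.2, 13.5 and 14.2 RPKM in Ctrl, 19.8, 20.8 and 17.9 RPKM in ONC, and 12.8, 15.7 and 14.3 RPKM in TPEN. Its log2 fold change was 0.45 in ONC/Ctrl (limma adjusted p = 0.00442) and -0.45 in TPEN/ONC (limma adjusted p = 0.0114). Gsta4 and Gstk1 were downregulated in TPEN/ONC by log2 fold changes of -0.40 (limma adjusted p = 0.00275) and -0.61 (limma adjusted p = 0.0139), the latter lost without ONC replicates 1 or 2 or TPEN replicate 3. Genes of the Gsta and Gstm families have near-identical copies, and their reads may have been split between them.

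The remaining lists held few changes. Of 8 tested genes that supply NADPH, 1 was upregulated (Tkt, 0.28, limma adjusted p = 0.0353) and 1 downregulated (Me1, -0.12, limma adjusted p = 0.0303) in ONC/Ctrl, and Me1 was upregulated in TPEN/ONC (0.14, limma adjusted p = 0.0277). Tkt overlaps Mir3076 and Me1 overlaps A330041J22Rik. These calls were lost in 5 or 6 of 9 fits that left out a library. Of 8 tested detoxification genes, Akr1b3 was the 1 upregulated in ONC/Ctrl, at 0.45 (limma adjusted p = 0.0459, lost in all 9 fits that left out a library). Ephx1, the microsomal epoxide hydrolase gene, was the 1 upregulated in TPEN/ONC, at 0.66 (limma adjusted p = 0.0169). It was lost without ONC replicates 1 or 3 or TPEN replicates 1 or 3, and voom called 0 genes of this list there. Of 3 tested genes of superoxide dismutases and catalase, 0 were called by limma in ONC/Ctrl or TPEN/ONC and 1 was upregulated in TPEN/Ctrl. At an unadjusted p under 0.05, ONC/Ctrl had 2 higher genes and TPEN/ONC had 0 in either direction, and voom called 1 and 0.

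**Figure D3:**
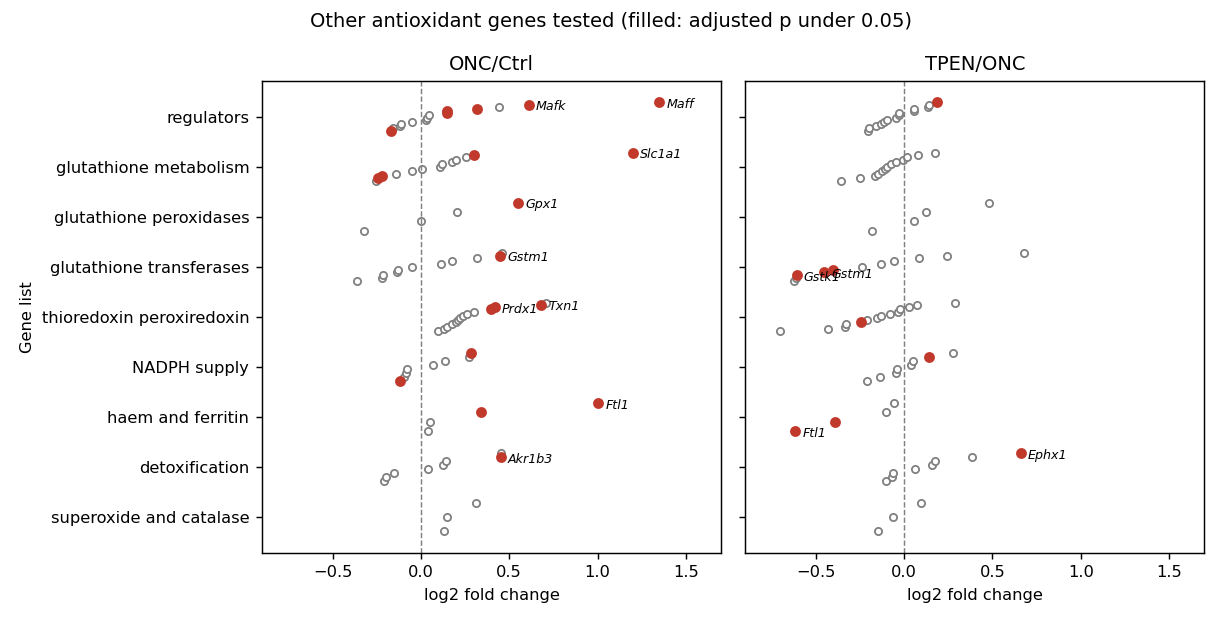
Log2 fold change (x axis) of the 79 tested genes of the other antioxidant lists (rows) in ONC/Ctrl and TPEN/ONC, with 1 point per gene and filled points for a limma adjusted p under 0.05. Maff, Slc1a1 and Ftl1 lie at 1.35, 1.20 and 1.004 in ONC/Ctrl, and most other points lie between -0.5 and 0.5.

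Some genes under the limit on low levels also differed, and 3 are named here after their values were seen, from the fit without that limit. Abcc3, another exporter of conjugates, had 0, 0 and 7 reads in Ctrl, 74, 49 and 53 reads in ONC, and 16, 14 and 20 reads in TPEN. It differed by -1.17 on the log2 scale in TPEN/ONC (SE 0.23, limma adjusted p = 0.0149). Osgin1, a growth inhibitor induced by oxidative stress, had 6, 0 and 8 reads in Ctrl, 16, 23 and 25 reads in ONC, and 4, 12 and 6 reads in TPEN, with a TPEN/ONC log2 fold change of -0.98 that was not called (limma adjusted p = 0.118). Hpgds, a prostaglandin D synthase of the transferase family, had 22, 10 and 14 reads in Ctrl, 87, 96 and 122 reads in ONC, and 66, 88 and 78 reads in TPEN. Hpgds rose by 1.92 on the log2 scale in ONC/Ctrl (SE 0.19, limma adjusted p = 7.4e-05) with a log2 fold change of -0.21 in TPEN/ONC (limma adjusted p = 0.582). Abcc3 was thus lower with TPEN, whereas Hpgds overlapped between ONC and TPEN. As for Slc7a11, a filter on listing passed through ONC alone would favour high ONC values in such genes.

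The genes whose log2(RPKM + 0.1) values followed those of Hmox1 most closely over the 9 libraries, among 12142 genes that averaged 1 RPKM or more, were Arg1 (Pearson r = 0.997), Hspa8 (0.994), Cxcl2 (0.993), Psap (0.989) and Apoe (0.989). These coefficients are descriptions over libraries that fall into 3 groups, and express mainly the shared order of the group means. The sizes differed widely. Arg1, the arginase 1 gene, averaged 0.278 ± 0.0496, 39.1 ± 0.235 and 1.04 ± 0.0889 RPKM in the Ctrl, ONC and TPEN libraries. Cxcl2, a chemokine gene, had Ctrl, ONC and TPEN means of 0.0423 ± 0.0419, 3.89 ± 0.272 and 0.124 ± 0.0247 RPKM, while Hspa8, a constitutive chaperone gene, had 194 ± 1.46, 234 ± 1.62 and 199.7 ± 2.55 RPKM (SD, n = 3 libraries). Psap, which encodes the precursor of lysosomal saposins, and Apoe, the gene of a lipid carrier, were at 51.0 ± 1.36 and 268 ± 5.48 RPKM in ONC, against 40.5 ± 0.447 and 172 ± 2.85 RPKM in Ctrl.

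Hmox1 is also expressed by macrophages, so its level was set beside the summed microglia and macrophage markers in each library, a comparison chosen after the values were seen. The ratio of Hmox1 RPKM to the summed RPKM of the 14 markers was 0.124, 0.126 and 0.11 in Ctrl, 0.13, 0.142 and 0.127 in ONC, and 0.0432, 0.0531 and 0.0464 in TPEN. The ratio in ONC lay just above that in Ctrl, and the TPEN ratios lay well below both. Its mean was 0.12 ± 0.00894 in Ctrl, 0.133 ± 0.00767 in ONC and 0.0476 ± 0.00502 in TPEN (SD, n = 3 libraries). The 2 groups compared did not overlap in any of the 3 comparisons (two-sided exact permutation p = 0.1 for each, the smallest 3 against 3 libraries can give). The median log2 fold change of the 12 tested markers was 2.76 in ONC/Ctrl, with a range of 1.503 to 4.95 that includes the 2.99 of Hmox1. In TPEN/ONC the median was -0.85, with a range of -2.09 to -0.28, and the -2.40 of Hmox1 lay outside it. The marker at the low end, Lyz2, had a 95% interval of -2.40 to -1.79, which overlaps the -2.60 to -2.21 of Hmox1. Arg1 and Cxcl2, which macrophages also express, were not on the marker list. Their TPEN/ONC log2 fold changes were -5.10 and -4.16, larger decreases than that of Hmox1. Both were picked above for following Hmox1 over these libraries, so the direction of their changes came from that choice. The part of microglia and macrophages in the Hmox1 changes was not tested.

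**Figure D4:**
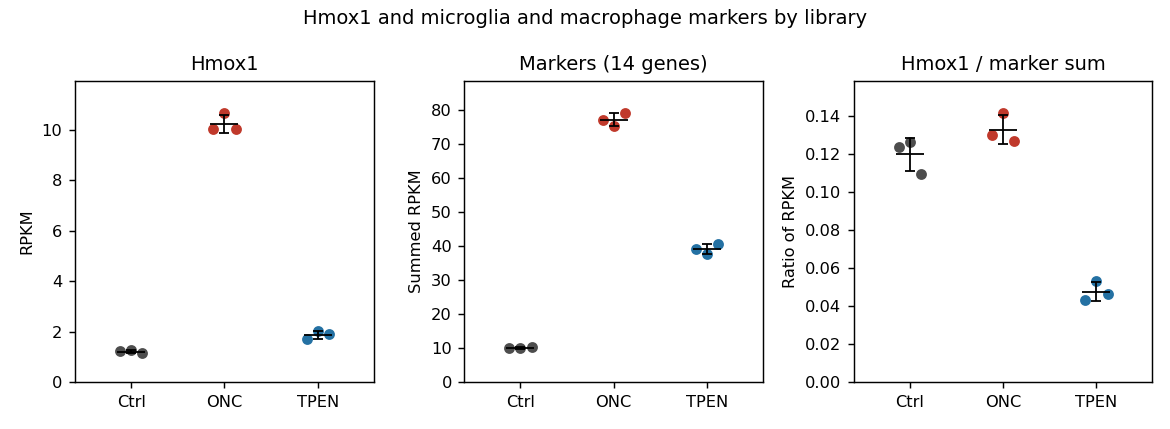
Hmox1 RPKM, the summed RPKM of 14 microglia and macrophage markers, and their ratio (y axes, left to right) in each library of Ctrl, ONC and TPEN, with 1 point per library and the mean with its SD over 3 libraries as a bar. Hmox1 and the markers are highest in ONC, and the ratio is lowest in TPEN, at 0.0432 to 0.0531.

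Markers of other cell types moved as well. Cone markers summed to 128 to 135 RPKM in Ctrl, 111 to 119 RPKM in ONC and 199 to 202 RPKM in TPEN, and all 6 were upregulated in TPEN/ONC. Müller glia markers summed to 563 to 582, 625.5 to 638 and 495 to 506 RPKM in the same order of groups, but did not move together. In ONC/Ctrl, 2 of these 10 markers were called higher (Apoe and Vim) and 4 lower (Glul, Rlbp1, Aqp4 and Car14), with a median log2 fold change of -0.07. Vim rose from a mean of 19.0 to 57.1 RPKM and Glul, the glutamine synthetase gene, fell from 172.7 to 116 RPKM. The 3 listed astrocyte markers summed to 5.54 to 6.21, 27.2 to 28.3 and 17.3 to 20.05 RPKM. Of 8 neutrophil markers 1 was listed (Csf3r), at 0.124 to 0.223, 0.989 to 1.13 and 0.25 to 0.511 RPKM. Bipolar markers summed to 43.8 to 44.6, 39.4 to 42.2 and 41.7 to 43.9 RPKM, and amacrine markers to 32.7 to 34.7, 28.2 to 29.1 and 33.3 to 35.3 RPKM. The 4 listed endothelial and pericyte markers summed to 11.9 to 12.6, 13.99 to 14.04 and 15.04 to 15.95 RPKM, but did not move together. Most of the sum was Kdr, with means of 10.7, 12.5 and 14.1 RPKM. Pdgfrb had means of 0.381, 0.217 and 0.241 RPKM, Rgs5 0.674, 0.725 and 0.533 RPKM, and Pecam1 0.546, 0.541 and 0.653 RPKM. The 2 listed haemoglobin genes summed to 1.98 to 2.57, 2.66 to 5.14 and 6.73 to 9.11 RPKM. The part of these cell types in the levels of the antioxidant genes was not tested.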

How the data were processed

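Total RNA of cells sorted as RGCs was sequenced from stranded mRNA libraries, 3 per group. The authors trimmed reads with Trimmomatic 0.36 (per the submitters' processing notes), mapped them with STAR to GRCm38/mm10 and tested counts with edgeR. They deposited RPKM values for 15228 genes. The counting program, annotation, use of strand and treatment of molecular identifiers are not given in the sources used here. The 9 columns of the authors' own fold changes, p-values and FDR were not used.

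RPKM times gene length gave whole reads for every value (within 0.001). Genes averaging 0.5 RPKM or more were tested by limma 3.58.1 (R 4.3.3) with a variance trend, on log2(RPKM + 0.1), with all 9 libraries in one fit. Few-value tests were exact permutations (scipy 1.17.1). Alternatives covered quantile and median-ratio scaling, a pseudocount of 1 RPKM, the limit on low genes, the 6 libraries compared, a replicate block, voom, and each library left out. Promoter windows came from RefSeq.

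The members and lists were chosen with earlier results of these data known. Named were all members, up to 3 called genes per list and comparison (ONC/Ctrl, TPEN/ONC) with the largest change, the 5 genes most like the member that changed most, markers, and genes overlapping a member. Any other is said to be chosen after its values were seen. Depth of 19946993 to 23109754 reads per library leaves a gene with 3 reads or fewer undetermined.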

Additional observations from a re-analysis of the deposited data

How the results depend on the processing

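Requiring a fold change of at least 1.5 left 2 members upregulated in ONC/Ctrl and 1 in TPEN/Ctrl. In the other antioxidant lists it left 5 genes upregulated and 0 downregulated in ONC/Ctrl. For TPEN/ONC this left 1 and 2, and for TPEN/Ctrl 4 and 0. Without the limit on low genes, 2 members were downregulated in TPEN/ONC, since Slc7a11 was then tested. With the 6 libraries compared, 2 list genes were downregulated in ONC/Ctrl and 2 in TPEN/Ctrl, and voom also gave 2 in TPEN/Ctrl.

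Slc7a11 depended on the scale. Quantile normalization gave log2 fold changes of 0.39 in ONC/Ctrl (limma adjusted p = 0.132), -0.62 in TPEN/ONC (0.0518) and -0.23 in TPEN/Ctrl, a change of sign. A pseudocount of 1 RPKM gave -0.12 in TPEN/ONC (0.0712), and voom gave 1.83 in TPEN/Ctrl (0.0443). Voom gave Gclm 0.31 in ONC/Ctrl (0.0275). The cause of these changes was not tested, and the few reads of Slc7a11 limit its precision.

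Libraries with the same number did not deviate together (correlations -0.062 to 0.027). This shows no strong shared deviation but cannot exclude pairing by mouse or day, which the sources used here do not give. A replicate block gave 2 list genes downregulated in ONC/Ctrl, 2 downregulated in TPEN/Ctrl and 1 upregulated in TPEN/ONC, and Slc7a11 was at -0.73 in TPEN/ONC (limma adjusted p = 0.0566). Over all genes the block left 1439 higher and 785 lower calls in ONC/Ctrl. For TPEN/ONC these were 304 and 397, and for TPEN/Ctrl 947 and 517. It changed no other member's call.

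When each library was left out, 4 to 5 members were upregulated in ONC/Ctrl and 3 to 4 in TPEN/Ctrl. Of the list genes, 0 to 4 were downregulated in ONC/Ctrl (0 without ONC replicate 2), 0 to 4 upregulated in TPEN/ONC (0 without ONC replicate 1 or TPEN replicate 1) and 2 to 3 downregulated in TPEN/Ctrl. Log2 fold changes ranged from -0.77 to -0.71 for Slc7a11 in TPEN/ONC, from 0.16 to 0.21 for Keap1 in ONC/Ctrl, from -0.0074 to 0.10 for Keap1 in TPEN/Ctrl (below 0 without TPEN replicate 3), from 0.21 to 0.30 for Txnrd1 in TPEN/Ctrl, and from -0.0799 to 0.0714 for Srxn1 in TPEN/ONC (-0.0041, -0.0382 and -0.0799, all below 0, without ONC replicate 1, ONC replicate 3 and TPEN replicate 3).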
